A study of Arabidopsis thaliana with 15 samples.

Results

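UDP-glycosyltransferases numbered as UGT genes form a large enzyme family of Arabidopsis thaliana, and 42 of them were followed here across UV-B, white light and mutants of UV-B and light signalling. The members were all genes whose symbol is UGT with a number and that have a probe set of their own, leaving out UGT78D1, UGT78D2, UGT84A1, UGT72E1 and UGT74B1, which act in the flavonoid, phenylpropanoid and glucosinolate pathways. They are 42 of the 13356 genes with a probe set paired with 1 gene, and they fall into 20 subfamilies (number and letter) of 11 family numbers. Each had 1 such probe set. The rule removes named genes and not whole pathways, so the set still holds UGT78D3, UGT72E2, UGT72E3, UGT84A3 and UGT84A4 of flavonoid or phenylpropanoid subfamilies, and UGT80B1, a sterol glucosyltransferase. The gene table lists 58 UGT symbols. The 11 without a probe set of their own include UGT73B2 and UGT73B3, which share 1 probe set. UGT75B1, UGT75B2, UGT74E2, UGT85A1, UGT73C6, UGT74F2 and UGT84A2 were not analysed here.

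These enzymes move a sugar, mostly glucose from UDP-glucose, onto small acceptor molecules. Glucosylation makes an acceptor more soluble, often takes away its activity, and marks it for storage in the vacuole. Known acceptors include abscisic acid, auxin, cytokinins, salicylic acid, sinapate and other hydroxycinnamates, flavonols, and foreign compounds such as herbicides and explosives. Many members lie side by side with close relatives on the chromosomes.

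The samples were leaves of 3-week-old Landsberg erecta plants, grown in compost at 21 °C under constant white light (25 µmol m-2 s-1). Plants of the mutants hy5-1 and uvr8-1 and of wildtype received UV-B (3 µmol m-2 s-1 for 4 h), and plants of uvr8-1 and wildtype stayed in white light. UVR8 is the photoreceptor of UV-B, and the bZIP factor HY5 switches on many light-regulated genes. Each of the 5 groups had 3 Affymetrix ATH1 arrays, described as biological replicates. Each mutant was represented by 1 allele. No hy5-1 array from white light was analysed here, so hy5-1 could be compared with the other genotypes only under UV-B. In whole leaves, fewer cells of a type and less RNA per cell cannot be told apart.

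Levels are log2 RMA values, in which 1 unit is a doubling. The ± after a difference is the standard error of that log2 difference, and the ± after a level is the SD of 3 arrays. A gene was called at an adjusted p under 0.05 from limma, Benjamini-Hochberg adjusted over 22746 probe sets. The limit under which the dimmest 40% of probe sets lay was 3.74, and 19 of the 42 members were below it on average over all arrays. The values carry no detection calls, so it is not known which dim members were above background.

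Arrays differed in ways that touch the comparisons below. The 3' minus 5' difference of control probe sets, which grows when RNA is shortened, was larger in hy5-1 for GAPDH and ubiquitin under UV-B. For GAPDH it was 2.65 ± 0.73 (SD, n = 3) in hy5-1, 0.91 ± 0.11 in uvr8-1 and 0.97 ± 0.05 in wildtype. For ubiquitin it was 1.84 ± 0.32, 1.17 ± 0.16 and 1.19 ± 0.07 in the same order. For actin the arrays overlapped, at 3.58 to 4.03 in hy5-1, 3.50 to 3.92 in uvr8-1 and 3.06 to 3.77 in wildtype. Averaged over GAPDH, ubiquitin and actin, as the 3' minus 5' index, the difference was 2.43 to 3.04 on the hy5-1 arrays, and at most 2.36 on any other array. The spread of values within an array (SD) was 1.98 to 2.04 in hy5-1, 2.01 to 2.05 on the replicate 1 arrays of the other groups, and 2.09 to 2.12 on their remaining arrays. Of 16 leaf mesophyll markers 2 were paired with a probe set of their own in the annotation used. LHCB4.1 stood at 11.86 to 12.34 and LHCB4.2 at 8.62 to 10.96 (group means), and both fell under UV-B in both genotypes. Of 7 root markers 2 were measured, PYK10 at 6.88 to 8.17 and JAL33 at 4.96 to 5.45, and PYK10 fell under UV-B in uvr8-1 (log2 -0.76 ± 0.23, adjusted p = 0.0201). Of 5 epidermis, trichome and guard cell markers 1 was measured, FMA, at 5.14 in hy5-1, 5.43 in uvr8-1 and 5.69 in wildtype under UV-B, and at 5.87 in uvr8-1 and 6.08 in wildtype in white light. It was called lower in hy5-1 than in wildtype and lower under UV-B in uvr8-1, and the part of these markers in the results was not tested. The flower, seed, vascular and meristem lists had no gene paired with a probe set of its own in the annotation used. Whether the array carries unpaired probe sets for these genes was not checked.

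In wildtype, UV-B raised 13 of the 42 members, among them glycosyltransferases of abscisic acid, salicylic acid, hydroxycinnamates and foreign compounds. That is 31%, against 12.2% of all probe sets, and 3 members fell (7.14%), against 18.3% of all probe sets. The median log2 response was 0.25 over the members and -0.04 over all probe sets, and single members ranged from -0.99 to 5.85. By size, 11 members rose at least 2-fold, 10 at least 4-fold and 5 at least 16-fold. In 6 of the 11 that rose at least 2-fold, the mean level of wildtype in white light was under the limit of 3.74. The shares of all probe sets at these cut-offs were not worked out, so these counts have no reference beside them.

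**Figure D1:**
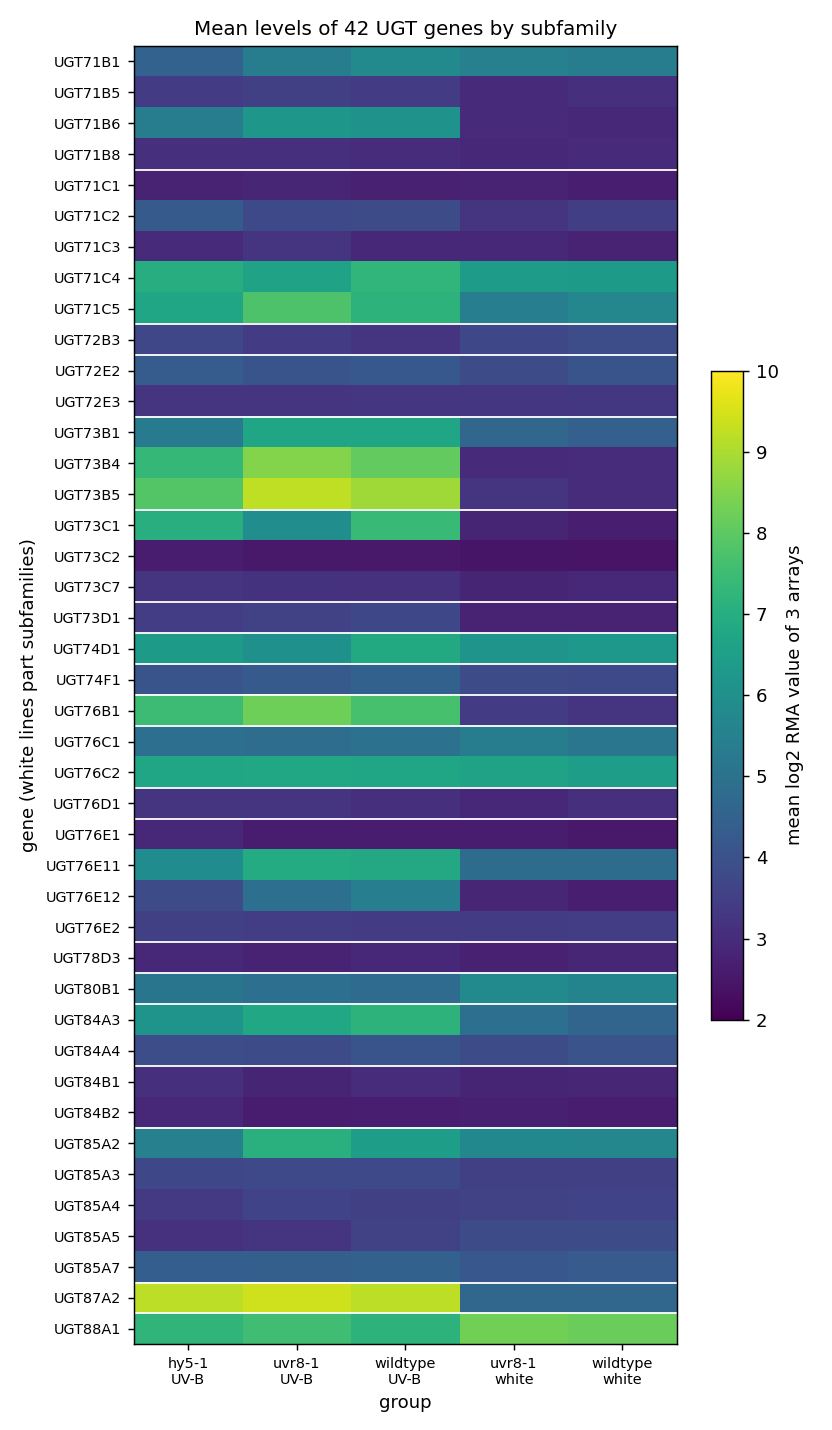
Mean log2 RMA value of 3 arrays (colour) for each of the 42 UGT genes (down the page, by subfamily) in the 5 groups (across). UGT73B5, UGT73B4, UGT73C1, UGT76B1, UGT71B6 and UGT87A2 were brighter in each of the 3 UV-B groups than in the 2 white light groups, while 15 members stayed under 3.74 in all groups.

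The 3 largest rises came from family 73, in which 4 of 7 members rose in wildtype. UGT73B5 (AT2G15480) is known for a part in resistance to Pseudomonas. Its log2 values were 7.82, 7.74 and 8.03 in UV-B-treated hy5-1, 8.09, 9.69 and 9.92 in UV-B-treated uvr8-1, 8.27, 8.84 and 9.49 in UV-B-treated wildtype, 3.53, 3.12 and 3.01 in uvr8-1 kept in white light, and 2.95, 3.15 and 2.95 in wildtype kept in white light. All UV-B arrays lay far above all white light arrays, and UV-B raised it 57.6-fold in wildtype (log2 5.85 ± 0.39, adjusted p = 2.32e-07). Its neighbour UGT73B4 (AT2G15490) conjugates reduced products of the explosive TNT in vitro. The arrays gave log2 values of 6.92, 7.38 and 7.65 in UV-B-treated hy5-1, 7.77, 9.09 and 8.70 in UV-B-treated uvr8-1, 7.25, 8.19 and 8.84 in UV-B-treated wildtype, 2.87, 3.14 and 2.93 in uvr8-1 kept in white light, and 3.04, 2.77 and 3.26 in wildtype kept in white light. It too was high on every UV-B array, and rose 33.6-fold in wildtype (log2 5.07 ± 0.37, adjusted p = 5.41e-07). In both genes replicate 1 was the lowest of the 3 uvr8-1 and of the 3 wildtype arrays under UV-B.

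UGT73B1 (AT4G34138), which glucosylates abscisic acid in vitro, was already at a middle level in white light. Measured log2 values were 5.14, 4.78 and 5.91 in UV-B-treated hy5-1, 6.13, 6.89 and 7.12 in UV-B-treated uvr8-1, 6.58, 6.95 and 6.66 in UV-B-treated wildtype, 3.86, 4.77 and 5.31 in uvr8-1 kept in white light, and 3.91, 4.45 and 5.01 in wildtype kept in white light. Wildtype and uvr8-1 arrays did not overlap between light conditions, and UV-B raised the gene by log2 2.28 ± 0.39 in wildtype (adjusted p = 0.000611). The hy5-1 values under UV-B lay below all other UV-B values.

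UGT73C1 (AT2G36750) conjugates TNT products and can O-glucosylate cytokinins. Array by array, it had log2 values of 7.06, 6.90 and 7.07 in UV-B-treated hy5-1, 5.46, 6.19 and 6.07 in UV-B-treated uvr8-1, 7.08, 7.74 and 7.34 in UV-B-treated wildtype, 2.73, 2.70 and 3.05 in uvr8-1 kept in white light, and 2.52, 2.66 and 2.80 in wildtype kept in white light. UV-B raised it 8.48-fold in uvr8-1 (log2 3.08 ± 0.20, adjusted p = 1.58e-07) and 26.5-fold in wildtype (log2 4.73 ± 0.20, adjusted p = 4.49e-09). Every uvr8-1 value under UV-B was below every hy5-1 and wildtype value under UV-B. The other members of the family were dim: UGT73C2 showed log2 0.12 ± 0.10 in wildtype, UGT73C7 0.25 ± 0.11 and UGT73D1 0.98 ± 0.41, none of them called. UGT73D1 stood at 5.02 on 1 wildtype UV-B array and at 2.84 and 3.34 on the other 2, and it was called without the lowest of these (log2 1.43, adjusted p = 0.0134).

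UGT87A2 (AT2G30140), a gene linked to flowering time, had the smallest standard error among the 6 largest rises in wildtype. On the 15 arrays its log2 values were 9.24, 9.16 and 9.19 in UV-B-treated hy5-1, 9.36, 9.52 and 9.43 in UV-B-treated uvr8-1, 9.21, 9.09 and 9.33 in UV-B-treated wildtype, 4.68, 4.47 and 4.74 in uvr8-1 kept in white light, and 4.52, 4.40 and 4.99 in wildtype kept in white light. The 9 UV-B arrays spanned 9.09 to 9.52 and the 6 white light arrays 4.40 to 4.99. The rise was 28-fold in uvr8-1 (log2 4.81 ± 0.14, adjusted p = 1.12e-10) and 23.8-fold in wildtype (log2 4.57 ± 0.14, adjusted p = 2.13e-10).

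In family 76, 3 of 8 members rose in wildtype. UGT76B1 (AT3G11340) glucosylates salicylic acid, isoleucic acid and N-hydroxypipecolic acid and restrains the defence response. Its log2 values were 7.76, 7.60 and 7.12 in UV-B-treated hy5-1, 8.26, 7.91 and 8.51 in UV-B-treated uvr8-1, 7.13, 6.63 and 9.24 in UV-B-treated wildtype, 3.22, 3.32 and 3.64 in uvr8-1 kept in white light, and 3.20, 3.37 and 3.12 in wildtype kept in white light. All UV-B values were above all white light values, but the 3 wildtype UV-B arrays spread from 6.63 to 9.24, with replicate 3 the highest of all arrays. The rise was 21.6-fold in wildtype (log2 4.44 ± 0.48, adjusted p = 1.28e-05), and log2 3.65 ± 0.23 without that array (adjusted p = 4.16e-07).

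UGT76E12 (AT3G46660) and UGT76E11 (AT3G46670) lie close together on chromosome 3 and rose in both genotypes. The log2 values of UGT76E12 were 4.17, 3.16 and 4.29 in UV-B-treated hy5-1, 4.51, 5.71 and 4.53 in UV-B-treated uvr8-1, 5.63, 4.99 and 5.62 in UV-B-treated wildtype, 2.98, 2.57 and 3.03 in uvr8-1 kept in white light, and 2.82, 2.58 and 2.61 in wildtype kept in white light. All UV-B values were above all white light values, with the hy5-1 values lowest of the 3 UV-B groups. UV-B raised UGT76E12 by log2 2.06 ± 0.34 in uvr8-1 and 2.75 ± 0.34 in wildtype (adjusted p = 0.00038 and 3.93e-05), and UGT76E11 4.28-fold in uvr8-1 and 4.01-fold in wildtype (standard error 0.34 on the log2 scale, adjusted p = 0.000353 and 0.000524).

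The cytokinin N-glucosyltransferases UGT76C1 and UGT76C2 were not called higher in either genotype. UGT76C2 did not pass the test in either genotype (log2 0.16 ± 0.26 in uvr8-1 and 0.28 ± 0.26 in wildtype). UGT76C1 (AT5G05870) had log2 values of 4.97, 5.09 and 4.72 in UV-B-treated hy5-1, 4.58, 5.03 and 4.99 in UV-B-treated uvr8-1, 4.82, 5.13 and 5.06 in UV-B-treated wildtype, 5.41, 5.65 and 5.09 in uvr8-1 kept in white light, and 5.09, 5.26 and 5.09 in wildtype kept in white light. In uvr8-1 it was lower under UV-B than in white light, without overlap (log2 -0.51 ± 0.16, adjusted p = 0.0246). In wildtype the arrays of the light conditions overlapped and the difference was -0.14 ± 0.16 (adjusted p = 0.6). The call in uvr8-1 was lost without uvr8-1 white light replicate 1 or 2 or UV-B replicate 1 (adjusted p = 0.0609, 0.116 and 0.104). UGT76E1, which can glucosylate 12-hydroxyjasmonate, and its neighbour UGT76E2 stayed dim, between 2.49 and 3.59 on all arrays. UGT76D1, which acts on dihydroxybenzoic acids, was also dim, with log2 0.30 ± 0.10 in uvr8-1 (adjusted p = 0.0406) and 0.04 ± 0.10 in wildtype (not called).

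In family 71, 3 of 9 members rose in wildtype, and 2 of them, UGT71B6 and UGT71C5, are abscisic acid glucosyltransferases. The gene UGT71B6 is AT3G21780. The arrays gave log2 values of 5.52, 5.24 and 5.42 in UV-B-treated hy5-1, 5.56, 6.56 and 6.53 in UV-B-treated uvr8-1, 5.60, 6.09 and 6.68 in UV-B-treated wildtype, 2.79, 2.95 and 3.20 in uvr8-1 kept in white light, and 2.79, 2.99 and 2.88 in wildtype kept in white light. White light values were all at or below 3.20 and UV-B values all at or above 5.24. The response in uvr8-1 was log2 3.24 ± 0.27, and that in wildtype was log2 3.24 ± 0.27, a 9.43-fold rise (adjusted p = 1.6e-06).

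UGT71C5 (AT1G07240) had log2 values of 6.60, 6.62 and 6.86 in UV-B-treated hy5-1, 7.22, 8.10 and 7.94 in UV-B-treated uvr8-1, 6.93, 7.18 and 7.43 in UV-B-treated wildtype, 4.85, 5.70 and 5.71 in uvr8-1 kept in white light, and 5.50, 5.95 and 5.67 in wildtype kept in white light. UV-B and white light arrays did not overlap. It rose by log2 2.33 ± 0.26 in uvr8-1 (adjusted p = 1.54e-05) and 1.47 ± 0.26 in wildtype (adjusted p = 0.000626). The gene beside it, UGT71C4 (AT1G07250), had log2 values of 6.78, 6.86 and 7.28 in UV-B-treated hy5-1, 6.64, 6.57 and 6.62 in UV-B-treated uvr8-1, 7.20, 7.32 and 7.27 in UV-B-treated wildtype, 6.19, 6.60 and 6.39 in uvr8-1 kept in white light, and 6.04, 6.56 and 6.45 in wildtype kept in white light. In uvr8-1 the arrays of the 2 light conditions overlapped and the difference was log2 0.21 ± 0.16 (adjusted p = 0.372), and in wildtype it rose by 0.91 ± 0.16 (adjusted p = 0.000569).

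UGT71B1 (AT3G21750) did not pass the test in either UV-B response. Measured log2 values were 4.36, 4.30 and 4.92 in UV-B-treated hy5-1, 5.67, 5.44 and 4.96 in UV-B-treated uvr8-1, 5.54, 6.36 and 5.57 in UV-B-treated wildtype, 4.91, 5.97 and 5.57 in uvr8-1 kept in white light, and 5.08, 5.77 and 5.24 in wildtype kept in white light. The light conditions overlapped in both genotypes, and the hy5-1 values lay below all uvr8-1 and wildtype values under UV-B. The remaining members of the family (UGT71B5, UGT71B8, UGT71C1, UGT71C2 and UGT71C3, the last a methyl salicylate glucosyltransferase) ranged from log2 0.03 ± 0.12 (UGT71B8) to 0.34 ± 0.18 (UGT71C2) in wildtype, with no call.

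Among enzymes acting on phenolic acids, UGT84A3 and UGT74F1 rose. UGT84A3 (AT4G15490) makes glucose esters of hydroxycinnamates. Array by array, it had log2 values of 6.46, 5.71 and 6.27 in UV-B-treated hy5-1, 7.26, 6.55 and 6.50 in UV-B-treated uvr8-1, 7.45, 7.15 and 6.92 in UV-B-treated wildtype, 4.72, 5.19 and 4.88 in uvr8-1 kept in white light, and 4.22, 5.02 and 4.55 in wildtype kept in white light. Light conditions did not overlap in either genotype, and UV-B raised it by log2 1.84 ± 0.26 in uvr8-1 and 2.57 ± 0.26 in wildtype (adjusted p = 0.000131 and 7.92e-06). Its neighbour UGT84A4 showed 0.04 ± 0.11 in wildtype, and UGT84B1, an auxin glucosyltransferase, showed 0.15 ± 0.11, both not called. UGT74F1, a salicylic acid glucosyltransferase, rose by log2 0.42 ± 0.15 in uvr8-1 at the edge of the threshold (adjusted p = 0.0498, and 0.0592 with the replicate number as a block), and by 0.73 ± 0.15 in wildtype (adjusted p = 0.00238). UGT74D1, another auxin glucosyltransferase, stood at 6.87 ± 0.43 under UV-B against 6.26 ± 0.39 in white light in wildtype (adjusted p = 0.0628). It was called without UV-B replicate 3 (0.014), after quantile normalisation (0.0436), after median centring (0.0409), without the dimmest 40% of probe sets (0.0435) and with the replicate number as a block on all arrays (0.0479), but not with the block on the 12 arrays without hy5-1.

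Only 3 members fell in wildtype, each the sole measured gene of its subfamily. UGT88A1 (AT3G16520) had log2 values of 7.30, 7.17 and 7.27 in UV-B-treated hy5-1, 8.04, 7.36 and 7.28 in UV-B-treated uvr8-1, 7.57, 7.17 and 6.78 in UV-B-treated wildtype, 8.39, 8.19 and 8.36 in uvr8-1 kept in white light, and 8.04, 8.08 and 8.36 in wildtype kept in white light. Every UV-B value was below every white light value of the same genotype, and the gene fell by 0.75 ± 0.21 on the log2 scale in uvr8-1 (adjusted p = 0.0126) and by 0.99 ± 0.21 in wildtype (adjusted p = 0.00241). The call in uvr8-1 was lost without uvr8-1 UV-B replicate 2 or 3 (adjusted p = 0.058 and 0.062).

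UGT80B1 (AT1G43620), known from seed coat mutants as a sterol glucosyltransferase, had log2 values of 5.24, 5.39 and 4.72 in UV-B-treated hy5-1, 4.85, 5.26 and 4.61 in UV-B-treated uvr8-1, 4.58, 4.98 and 4.85 in UV-B-treated wildtype, 5.60, 5.90 and 5.93 in uvr8-1 kept in white light, and 5.15, 5.94 and 5.74 in wildtype kept in white light. It fell by 0.91 ± 0.23 in uvr8-1 and by 0.81 ± 0.23 in wildtype (adjusted p = 0.00777 and 0.016), with no overlap. In wildtype the call was lost without white light replicate 2 or 3 or UV-B replicate 1 (adjusted p = 0.0767, 0.0584 and 0.0615). In uvr8-1 it was lost with the 3' minus 5' index as a covariate (-0.69, adjusted p = 0.0565).

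UGT72B3 (AT1G01420), a relative of monolignol glucosyltransferases, had log2 values of 3.81, 3.54 and 3.79 in UV-B-treated hy5-1, 3.71, 3.34 and 3.21 in UV-B-treated uvr8-1, 3.56, 2.82 and 3.28 in UV-B-treated wildtype, 4.04, 3.36 and 3.81 in uvr8-1 kept in white light, and 3.63, 3.95 and 4.11 in wildtype kept in white light. The groups did not overlap in wildtype, where it fell by 0.68 ± 0.22 (adjusted p = 0.0288), and they overlapped in uvr8-1. The wildtype call was lost without white light replicate 2 or 3 or UV-B replicate 2 or 3 (adjusted p = 0.0794, 0.112, 0.133 and 0.0583). UGT72E2 and UGT72E3, which glucosylate monolignols, and UGT78D3, a flavonol arabinosyltransferase, did not pass the test in any comparison.

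Subfamily 85A was split. UGT85A2 (AT1G22360) had log2 values of 5.38, 5.24 and 5.80 in UV-B-treated hy5-1, 6.59, 7.15 and 7.49 in UV-B-treated uvr8-1, 6.06, 6.13 and 7.25 in UV-B-treated wildtype, 5.77, 5.89 and 5.57 in uvr8-1 kept in white light, and 5.28, 6.05 and 5.75 in wildtype kept in white light. It rose in uvr8-1 by log2 1.33 ± 0.31 (adjusted p = 0.00484). In wildtype the difference was 0.78 ± 0.31 with no overlap of the arrays (adjusted p = 0.0775, 0.0347 with the replicate number as a block, 0.0498 with that block on the 12 arrays without hy5-1, and 0.0432 without UV-B replicate 1). UGT85A5 (AT1G22370) had log2 values of 3.20, 3.10 and 3.13 in UV-B-treated hy5-1, 3.09, 3.24 and 3.36 in UV-B-treated uvr8-1, 3.26, 3.94 and 3.43 in UV-B-treated wildtype, 3.45, 4.05 and 3.94 in uvr8-1 kept in white light, and 3.49, 4.23 and 3.78 in wildtype kept in white light. In uvr8-1 it was lower under UV-B than in white light (log2 -0.59 ± 0.21, adjusted p = 0.0473), and in wildtype the arrays of the light conditions overlapped. The call in uvr8-1 was lost without uvr8-1 white light replicate 2 or 3 or any of the 3 UV-B replicates, after quantile normalisation and with the 3' minus 5' index as a covariate (adjusted p from 0.064 to 0.173). UGT85A3, UGT85A4 and UGT85A7 were called in no comparison, though without wildtype UV-B replicate 2 UGT85A3 was called in wildtype (log2 0.38, adjusted p = 0.0193).

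**Figure D2:**
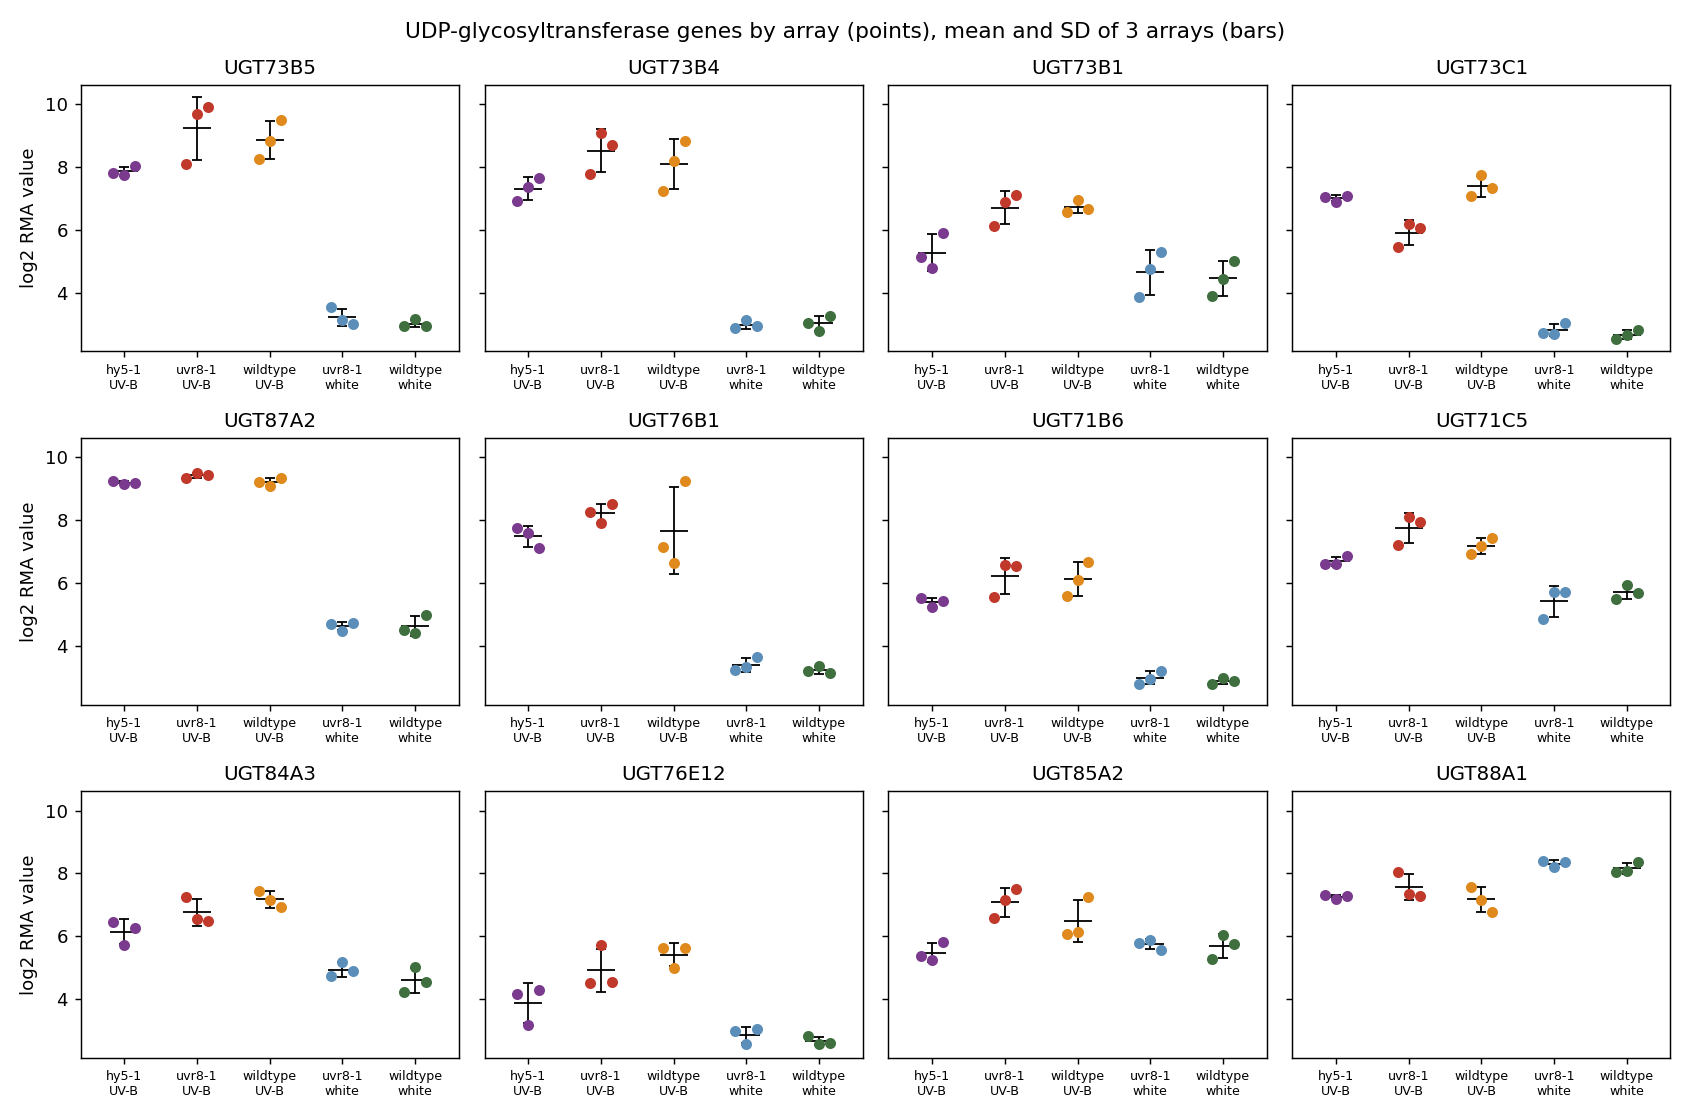
Log2 RMA value (vertical axis) of 12 UGT genes in the 5 groups (horizontal axis), with a point per array, and bars for the mean and SD of 3 arrays. The groups under UV-B and in white light lie apart for UGT73B5, UGT73B4, UGT73C1, UGT87A2, UGT76B1 and UGT71B6, with the uvr8-1 points of UGT73C1 under those of both other genotypes under UV-B.

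Neighbouring relatives gave both like and unlike responses. With at most 5 genes between neighbours, 28 members lay in 12 clusters. In wildtype both measured genes of the UGT73B4 and UGT73B5 pair and of the UGT76E11 and UGT76E12 pair rose. In the UGT73C1 and UGT73C2 pair, UGT73C1 showed log2 4.73 ± 0.20 and UGT73C2 0.12 ± 0.10. In the UGT84A3 and UGT84A4 pair the values were 2.57 ± 0.26 and 0.04 ± 0.11. UGT71B6 stood at 3.24 ± 0.27 between UGT71B1 at 0.46 ± 0.31 and UGT71B8 at 0.03 ± 0.12. UGT71C5 and UGT71C4 rose beside UGT71C3, which showed 0.11 ± 0.13 and was not called. The probe sets of these relatives are paired with 1 gene each by the platform annotation, and how far a probe set also takes up a relative's RNA was not tested.

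**Figure D3:**
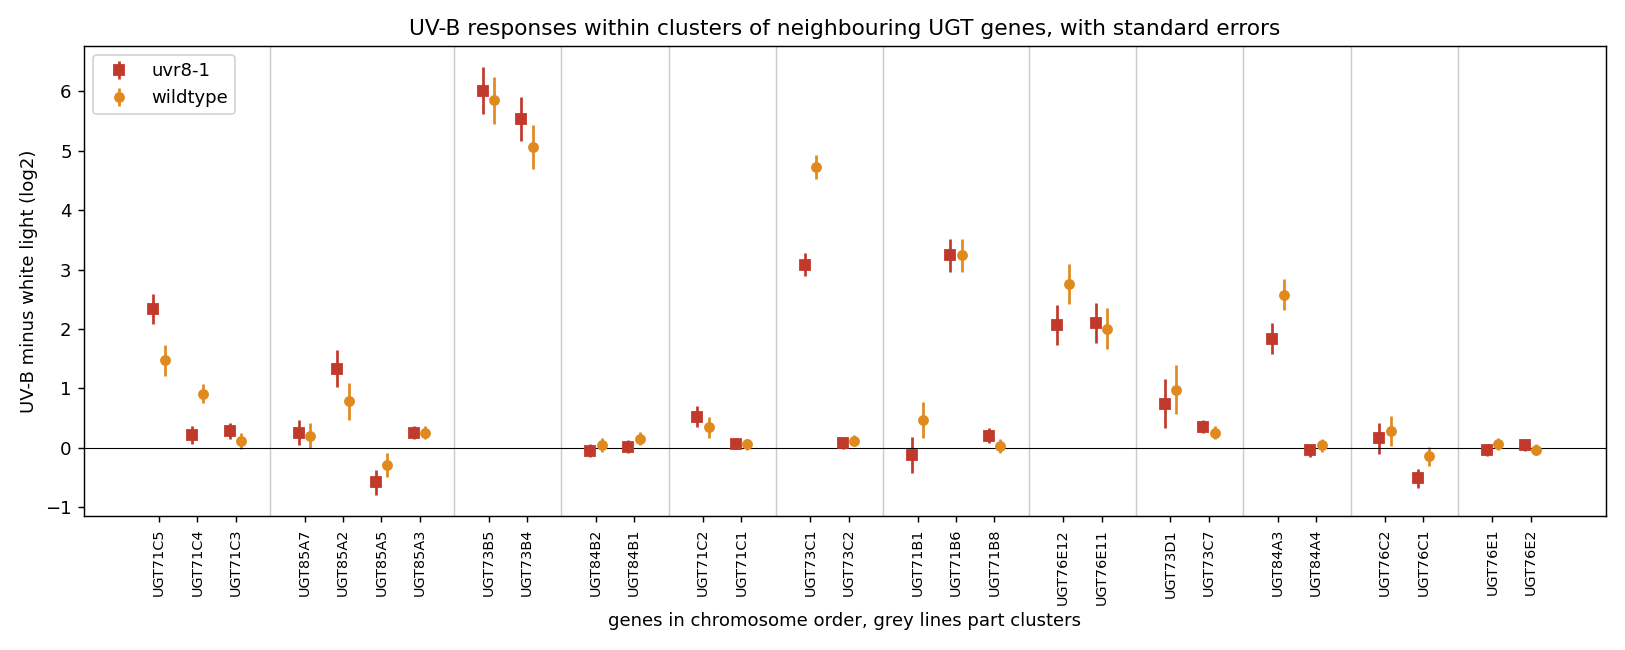
UV-B minus white light difference in log2 units (vertical axis) with standard errors for 28 genes in 12 clusters of neighbours, in chromosome order (horizontal axis), for uvr8-1 (squares) and wildtype (circles). Large rises stand beside near-zero values in the clusters of UGT73C1, UGT71B6 and UGT84A3, while both genes rose in those of UGT73B5 and UGT76E12.

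Most members that rose in wildtype rose in uvr8-1 as well. In uvr8-1, 17 members rose (40.5%), against 12.9% of all probe sets, and 4 fell (9.52%), against 19% of all probe sets. In all, 12 members rose in both genotypes, which is 70.6% of the uvr8-1 list and 92.3% of the wildtype list. Over all probe sets these shares were 74.4% of the uvr8-1 list and 78.7% of the wildtype list. The wildtype list alone held UGT71C4, and the uvr8-1 list alone held UGT71B5, UGT71C2, UGT73C7, UGT76D1 and UGT85A2. The 3' minus 5' index was 1.92 to 1.95 on the uvr8-1 arrays under UV-B and 2.08 to 2.36 in white light. With it as a covariate, 14 members rose in uvr8-1 and 1 fell, against 11.2% and 17.1% of all probe sets, and UGT73C7, UGT74F1, UGT76D1, UGT76C1, UGT80B1 and UGT85A5 lost their calls (adjusted p from 0.0565 to 0.217). A place on 1 list alone does not show a difference between the genotypes, which was tested directly.

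That test called 1 member. The response of UGT73C1 was smaller in uvr8-1, with a difference of responses (uvr8-1 minus wildtype) of log2 -1.64 ± 0.28 (95% interval -2.24 to -1.05, adjusted p = 0.00994). Among all probe sets, 0.831% were called with a lower and 0.0264% with a higher response in uvr8-1. The next smallest p-values belonged to UGT71C4, with a difference of -0.70 ± 0.22 (adjusted p = 0.326), and UGT71C5, with 0.86 ± 0.36 (adjusted p = 0.622), neither of them called. For other large rises the interval of the difference included 0, at 0.17 ± 0.56 for UGT73B5 (95% interval -1.03 to 1.36), 0.00 ± 0.39 for UGT71B6 (-0.83 to 0.84) and 0.23 ± 0.19 for UGT87A2 (-0.19 to 0.65).

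**Figure D4:**
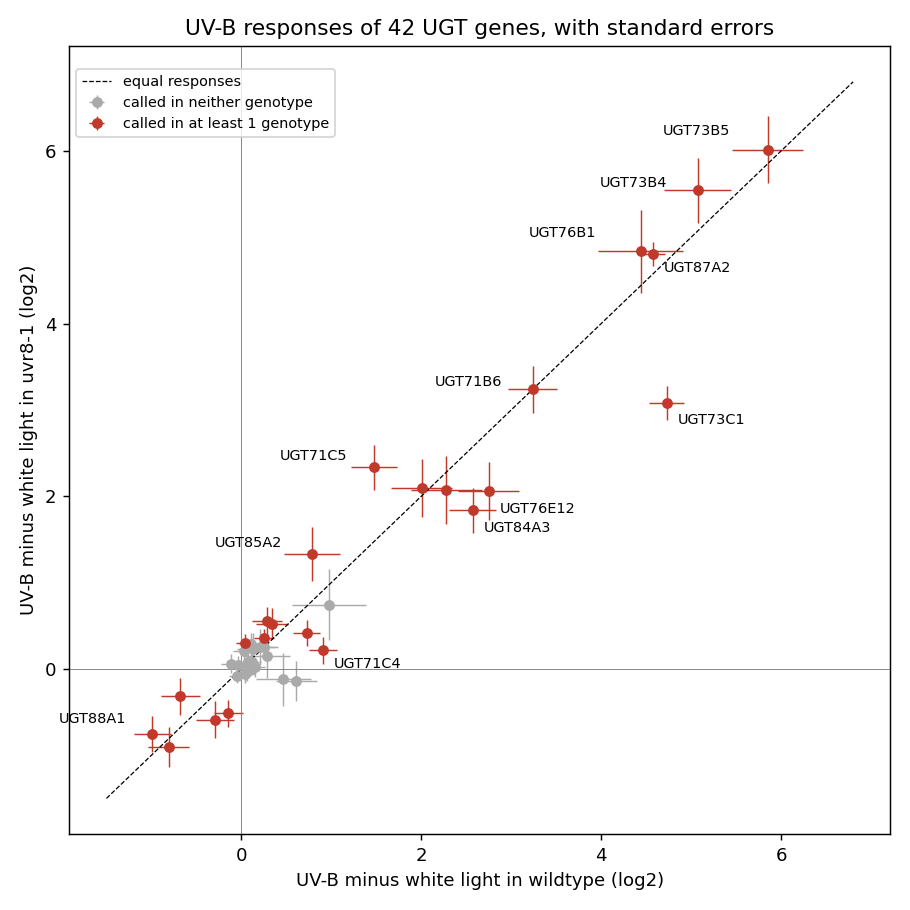
UV-B minus white light difference in log2 units in uvr8-1 (vertical axis) against that in wildtype (horizontal axis) for the 42 UGT genes, with standard errors; the dashed line marks equal responses. UGT73C1 lies farthest below the line, at 3.08 in uvr8-1 and 4.73 in wildtype, and it is the sole member whose 2 responses differed by the test.

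Of the 5 members on the uvr8-1 list alone, all but UGT85A2 were in the dimmest 40% and rose by at most log2 0.55. UGT71B5 showed log2 0.55 ± 0.16, UGT71C2 0.52 ± 0.18, UGT73C7 0.35 ± 0.11 and UGT76D1 0.30 ± 0.10 in uvr8-1. The uvr8-1 call on UGT71B5 was lost without white light replicate 2 or UV-B replicate 3, and those on UGT71C2 and UGT76D1 without any 1 white light replicate or UV-B replicate 2 or 3. The call on UGT73C7 was lost without white light replicate 3 or UV-B replicate 1 or 2, and that on UGT74F1 without white light replicate 1 or 2 or UV-B replicate 2 or 3 (adjusted p from 0.0512 to 0.172 over all these). UGT71C3 was called without UV-B replicate 1 (log2 0.41, adjusted p = 0.0295).

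Compared directly under UV-B, uvr8-1 differed from wildtype in 2 members, both lower (4.76%), against 1.99% of all probe sets called lower and 0.422% called higher. UGT73C1 stood at 5.91 ± 0.39 in uvr8-1 and 7.39 ± 0.33 in wildtype, a difference of -1.48 ± 0.20 (adjusted p = 0.000662, and 0.0673 in the fit of the compared groups alone). UGT71C4 stood at 6.61 ± 0.04 in uvr8-1 and 7.26 ± 0.06 in wildtype, a difference of -0.66 ± 0.16 (adjusted p = 0.0453). The call on UGT71C4 was lost without any 1 of the 6 arrays (adjusted p from 0.0765 to 0.166). Without wildtype UV-B replicate 3, UGT76B1 was called higher in uvr8-1 (log2 1.35, adjusted p = 0.0047) and UGT74D1 lower (-1.10, adjusted p = 0.0141). In white light no member was called between uvr8-1 and wildtype by limma, either after adjustment or at an unadjusted p under 0.05 (0 members in both), and 0.0132% of all probe sets were called higher and 0.0044% lower.

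Under UV-B, single members of subfamilies 76E, 71B, 71C, 84A and 85A were called lower in hy5-1 than in wildtype or uvr8-1. The other measured members of these subfamilies were not called in either comparison. In subfamily 73B all 3 measured members were called lower in at least 1 of the comparisons. The hy5-1 arrays also had the larger 3' minus 5' index. Against wildtype, 4 members were lower (9.52%) and 0 higher, with 4.81% of all probe sets called lower and 2.77% higher. UGT76E12 stood at 3.87 ± 0.62 in hy5-1 and 5.42 ± 0.37 in wildtype, a difference of -1.54 ± 0.34 (adjusted p = 0.0171). The difference was -1.45 ± 0.39 for UGT73B1 (adjusted p = 0.0418), -1.30 ± 0.31 for UGT71B1 (adjusted p = 0.0236) and -1.02 ± 0.26 for UGT84A3 (adjusted p = 0.0329). In each of the 4, all hy5-1 values lay below all wildtype values. The 4 were called on these same arrays, so this lack of overlap adds no separate support. It was also seen in members not called against wildtype, such as UGT71B6, UGT73B5, UGT76E11 and UGT85A2. Its share over all probe sets was not worked out. All 4 calls were lost without hy5-1 replicate 2 (adjusted p = 0.0752 for UGT76E12, 0.165 for UGT73B1, 0.1 for UGT71B1 and 0.141 for UGT84A3). At least 1 was also lost without hy5-1 replicate 1 (0.124 for UGT73B1 and 0.0864 for UGT71B1) and without wildtype UV-B replicate 1 (0.0688 for UGT73B1 and 0.092 for UGT84A3), 2 (0.13 for UGT73B1, 0.0977 for UGT71B1 and 0.089 for UGT84A3) or 3 (0.0519 for UGT76E12 and 0.0826 for UGT73B1).

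Against uvr8-1, 5 members were lower in hy5-1 (11.9%), with 8.47% of all probe sets called lower, and 1 was higher (2.38%), with 5.37% called higher. UGT85A2 stood at 5.48 ± 0.29 in hy5-1 and 7.08 ± 0.45 in uvr8-1, a difference of -1.60 ± 0.31 (adjusted p = 0.00603). The 3 members of subfamily 73B were all lower in hy5-1: UGT73B1 at a difference of -1.44 ± 0.39, UGT73B5 at -1.37 ± 0.39 and UGT73B4 at -1.20 ± 0.37 (adjusted p = 0.0297, 0.0351 and 0.0481). UGT71C5 differed by -1.06 ± 0.26 (adjusted p = 0.0166). UGT73C1, at 7.01 ± 0.10 in hy5-1 and 5.91 ± 0.39 in uvr8-1, was higher in hy5-1 by log2 1.10 ± 0.20 (adjusted p = 0.00375). With each array left out in turn, UGT73C1 and UGT85A2 stayed called, while the other 4 were lost without hy5-1 replicate 1 or 2 or uvr8-1 UV-B replicate 2 or 3, and UGT73B5 also without hy5-1 replicate 3 (adjusted p from 0.0526 to 0.181 over these calls). Without hy5-1 replicate 3, UGT71C2 and UGT76E1 were called higher in hy5-1 than in uvr8-1 (log2 0.65 and 0.40), and UGT76E11 and UGT76E12 lower (-1.29 and -1.25). Without uvr8-1 UV-B replicate 1, UGT71B6 and UGT76E12 were called lower (-1.16 and -1.25). Without replicate 1 of every group, UGT71B6 was called lower in hy5-1 too (-1.06 against wildtype, adjusted p = 0.0219, and -1.22 against uvr8-1, adjusted p = 0.00974), as was UGT73B5 against wildtype (-1.28, adjusted p = 0.0172). In that fit the calls against wildtype on UGT71B1, UGT73B1 and UGT76E12 were lost (-1.35, -1.46 and -1.58, adjusted p = 0.0501, 0.0521 and 0.0742).

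**Figure D5:**
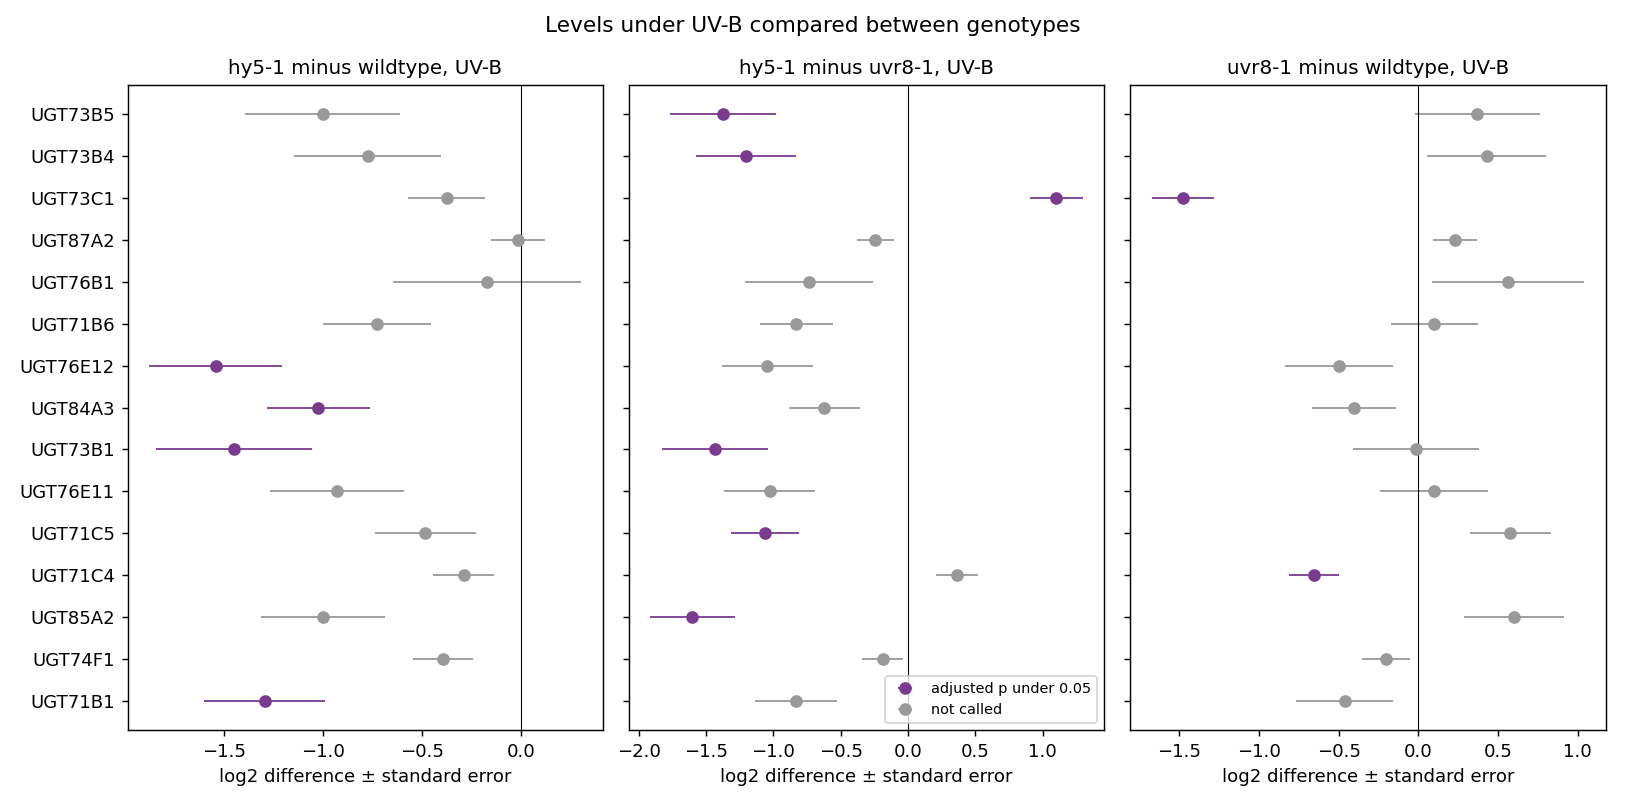
Log2 differences under UV-B with standard errors (horizontal axis) for 15 UGT genes that rose in wildtype or were called between hy5-1 and another genotype (down the page), in 3 panels: hy5-1 minus wildtype, hy5-1 minus uvr8-1, and uvr8-1 minus wildtype. Most points in both hy5-1 panels lie left of 0, and UGT73C1 lies right of 0 against uvr8-1 (1.10) and left of 0 in uvr8-1 minus wildtype (-1.48).

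Most of the genes that rose in wildtype had lower means in hy5-1 than in uvr8-1. Of the 13 members that rose in wildtype, 11 had a lower mean in hy5-1 than in uvr8-1, with a median log2 difference of -0.83. Of the 2776 probe sets called higher in wildtype, 59.3% had a lower mean in hy5-1, with a median of -0.13. The difference between these shares was not tested, and the 2776 were not matched to the members by size of rise. Equal replicate numbers of wildtype and uvr8-1 under UV-B deviated together (correlations 0.45 to 0.68). The choice of genes by the wildtype arrays was therefore not independent of the uvr8-1 values. UGT87A2 was near the other genotypes in hy5-1, at 9.19 ± 0.04 in hy5-1 and 9.21 ± 0.12 in wildtype (difference -0.02 ± 0.14, 95% interval -0.31 to 0.28).

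The hy5-1 arrays were also those with the larger 3' minus 5' index. With this index as a covariate no member was called in hy5-1 minus wildtype or in hy5-1 minus uvr8-1, and 0.0264% or fewer of all probe sets were called in either direction. The standard errors of the called members grew to between 0.45 and 0.91. The estimates for UGT73B1 turned to 0.33 ± 0.76 against wildtype and 0.26 ± 0.73 against uvr8-1. Against wildtype the other 3 were -0.58 ± 0.76 for UGT76E12, -0.41 ± 0.68 for UGT71B1 and -0.33 ± 0.59 for UGT84A3. Against uvr8-1, UGT73C1 was at 1.09 ± 0.45, UGT73B5 at -1.64 ± 0.91, UGT85A2 at -1.19 ± 0.71, UGT73B4 at -1.03 ± 0.86 and UGT71C5 at -0.50 ± 0.56. The hy5-1 arrays lay above all other arrays on this index, so in these comparisons genotype and index cannot be told apart.

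Over the 7 comparisons, 24 of the 42 members (57.1%) were called at least once, against 45.5% of all probe sets, and 18 in none. The 18 are UGT71B8, UGT71C1, UGT71C3, UGT72E2, UGT72E3, UGT73C2, UGT73D1, UGT74D1, UGT76C2, UGT76E1, UGT76E2, UGT78D3, UGT84A4, UGT84B1, UGT84B2, UGT85A3, UGT85A4 and UGT85A7.

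Genes listed for sugar donor supply or for steps around glucosylation were mostly not paired with probe sets of their own in the annotation used. Whether the array carries unpaired probe sets for them was not checked. Of 31 enzymes of UDP-sugar supply 1 was measured, USP, a UDP-sugar pyrophosphorylase, which showed log2 0.06 ± 0.13 in uvr8-1 and -0.03 ± 0.13 in wildtype under UV-B (not called). It was lower in hy5-1 than in uvr8-1 under UV-B (-0.51 ± 0.13, adjusted p = 0.024). Of 14 genes listed for steps before or after glucosylation 3 were measured. The list was drawn up with earlier results of these data known. Whether these 3 genes handle glucose conjugates was not tested. The efflux carrier genes DTX3 (AT2G04050) and DTX4 (AT2G04070) rose in both genotypes, DTX3 by log2 6.04 ± 0.27 in uvr8-1 and 6.05 ± 0.27 in wildtype, and DTX4 by 5.07 ± 0.33 in uvr8-1 and 4.79 ± 0.33 in wildtype. The methyltransferase gene BSMT1, which makes methyl salicylate, showed -0.27 ± 0.12 in uvr8-1 and -0.09 ± 0.12 in wildtype and was not called. Over all probe sets, 12.9% were called higher under UV-B in uvr8-1 and 12.2% in wildtype.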

How the data were processed

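The deposited values are log2 expression values that the authors made with RMA, per the submitters' processing notes. RMA brings the arrays to 1 distribution of probe intensities and combines each set of probes into 1 value. Not given in the sources used here are its version, its background step and whether 1 run covered every array. No further normalisation was applied. Of 22810 probe sets, 64 controls were set aside and 22746 tested. Array medians lay between 4.31 and 4.40, and 3 arrays per group limit the precision.

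Names came from the platform annotation and a RefSeq gene table (TAIR10.1), which was also used for the order of genes. Coordinates are left out because the array files name no genome build. limma 3.58.1 in R 4.3.3 fitted 1 mean per group to all 15 arrays (10 residual and 3.09 prior degrees of freedom, eBayes defaults), with 7 contrasts, 2-sided tests and Benjamini-Hochberg adjustment over all tested probe sets. The fit was tested on simulated data. Tables used Python 3.11.15, pandas 2.3.3 and numpy 2.4.6, and plots matplotlib 3.10.9.

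The members and the gene lists were chosen with earlier results of these data known. Values on every array are given for the 6 largest rises and 4 largest falls without overlap in each UV-B response, up to 4 calls per direction in each comparison of genotypes, and the 3 smallest p-values in the difference of responses. Other members are named with their subfamily, cluster or role. The genotypes share arrays between comparisons: the wildtype UV-B arrays enter both the wildtype response and hy5-1 minus wildtype, and the uvr8-1 UV-B arrays both the uvr8-1 response and hy5-1 minus uvr8-1.

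Replicate numbers come from the sample titles. Among wildtype and uvr8-1 arrays, deviations from the group mean correlated between equal numbers in all 18 pairs (0.10 to 0.68) and between unequal numbers at -0.57 to 0.13, so equal numbers pair these arrays. With hy5-1 the correlations were -0.15 to 0.20, and 4 of 12 were over 0.1. Alternatives were quantile normalisation, median centring, leaving out the dimmest 40% of probe sets, an intensity trend, a fit of the compared groups alone, the replicate block, the 3' minus 5' index as a covariate, a threshold of 0.01 and leaving out each array. A block without hy5-1 arrays and a fit without replicate 1 were added after seeing the data.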

Additional observations from a re-analysis of the deposited data

Results flagged for a closer look

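UGT73C1 was the sole member whose UV-B responses differed between genotypes by the test of the difference itself, at -1.64 ± 0.28 on the log2 scale (uvr8-1 minus wildtype), and its responses were 3.08 in uvr8-1 and 4.73 in wildtype. The sign and the call held with each array left out in turn. With the 3' minus 5' index as a covariate the difference of responses was -1.64 ± 0.32 by limma, near the threshold (adjusted p = 0.0473).

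UGT73B2 and UGT73B3 share 1 probe set and were therefore outside the members. UGT73B3 is known for a part in resistance to Pseudomonas, as is UGT73B5. The log2 values of the shared probe set were 9.57, 9.70 and 10.22 in UV-B-treated hy5-1, 10.95, 11.03 and 11.12 in UV-B-treated uvr8-1, 10.65, 10.44 and 10.66 in UV-B-treated wildtype, 6.14, 6.24 and 6.03 in uvr8-1 kept in white light, and 5.75, 6.33 and 5.73 in wildtype kept in white light. It rose by log2 4.90 ± 0.18 in uvr8-1 and 4.65 ± 0.18 in wildtype (adjusted p = 1.66e-09 and 2.16e-09), and it was lower in hy5-1, with a log2 difference of -1.20 ± 0.18 against uvr8-1 (adjusted p = 0.00135) and -0.75 ± 0.18 against wildtype (adjusted p = 0.0239). Which of the genes gave the signal cannot be told from it.

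The probe set shared by UGT71D1 and AT2G29710 rose by log2 0.69 ± 0.21 in uvr8-1 and 0.62 ± 0.21 in wildtype (adjusted p = 0.0236 and 0.0416). The probe set shared by UGT89B1 and AT1G73885 showed -0.12 ± 0.18 in uvr8-1 and -0.33 ± 0.18 in wildtype and was not called.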

How the results depend on the processing

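The wildtype response (16 members called) and the difference of the responses (1 member) stayed within 1.5 times under every alternative run, and no member was called between genotypes in white light. At an adjusted p under 0.01 the count of members was 13 for the uvr8-1 response (21 at 0.05), 1 for uvr8-1 minus wildtype under UV-B (2 at 0.05), 0 for hy5-1 minus wildtype (4 at 0.05) and 2 for hy5-1 minus uvr8-1 (6 at 0.05). For uvr8-1 minus wildtype under UV-B the intensity trend, the fit of the compared groups alone and the fit without replicate 1 of every group each left 1 member. In the fit of the compared groups alone UGT73C1 had an adjusted p of 0.0673. Quantile normalisation left 2 members in hy5-1 minus wildtype. With the 3' minus 5' index as a covariate 0 members were called in both hy5-1 comparisons, and UGT73B1 turned to 0.33 against wildtype and 0.26 against uvr8-1. The other 3 against wildtype stood between -0.58 and -0.33. Against uvr8-1 UGT73C1 was at 1.09 (1.10 without the covariate), UGT73B5 at -1.64 (-1.37), UGT73B4 at -1.03 (-1.20) and UGT85A2 at -1.19 (-1.60). UGT71C5 was at -0.50 (-1.06 without the covariate). The standard errors of all these differences were larger with the covariate. Because no hy5-1 array overlapped the other arrays on the index, this fit cannot sort members by how much of their difference they kept. In the uvr8-1 response that covariate left 14 members higher and 1 lower. With each array left out, the counts ran from 2 to 9 in hy5-1 minus uvr8-1, 0 to 5 in hy5-1 minus wildtype, 15 to 19 in the uvr8-1 response and 1 to 3 in uvr8-1 minus wildtype under UV-B. Fewer arrays enter the fits with an array left out. The cause was not tested for any of these shifts.

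With the replicate number as a block, 20 members were called in the uvr8-1 response and 18 in the wildtype response. UGT74F1 was lost in uvr8-1, and UGT74D1 and UGT85A2 were gained in wildtype. On the 12 arrays without hy5-1 the block gave 20 members in the uvr8-1 response and 17 in the wildtype response, where UGT85A2 was gained and UGT74D1 was not. The block gave 8 calls in hy5-1 minus uvr8-1 and 5 in hy5-1 minus wildtype, where equal numbers did not pair the arrays. Of 445 planned repeats of single named differences, 372 kept direction and call, 71 lost the call and 2 reversed. Of 57 added ones 52 kept both and 5 lost the call. Each member had 1 probe set, so the choice of the dimmer probe set per gene gave no other value.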
